A study of Homo sapiens with 12 samples.

Results

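MFSD1, KIF5C, UBQLN2, PLEKHB2 and SUDS3 are 5 genes whose array signals lay below control after BCL6 siRNA in both of the lymphoma lines studied. They were chosen by that difference between siRNA and control signals, as transcripts that an siRNA might lower besides its target, so their own changes after siRNA are given here as a description and carry no test. They are 5 of 19775 genes on the array, and 11 of the 41091 probe sets that carry exactly 1 gene symbol. The study hybridised total RNA of lines from human diffuse large B-cell lymphoma, of the germinal centre B-cell type, to 12 Affymetrix U133 Plus 2.0 arrays. The groups, of 3 arrays each, were Pfeiffer cells given a BCL6 siRNA, Pfeiffer cells given a non-target control, OCI-Ly7 cells given a BCL6 siRNA and OCI-Ly7 cells given a non-target control siRNA. All cells were grown in serum-supplemented IMDM medium, transfected transiently, in triplicate per the design text, and their RNA was taken after 48 h. The Pfeiffer control titles read NTshRNA while their descriptions and the design text speak of siRNA. The siRNA sequences are not given in the sources used here, so no match between an siRNA and a transcript was looked for, and whether the 5 transcripts are side targets was not tested. Nothing in the labels ties the triplicates to separate cultures, so p-values weigh differences only against the spread between these arrays, which may be technical. In such bulk RNA, fewer cells carrying a transcript and less of it per cell cannot be told apart.

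BCL6 is a zinc finger repressor that holds germinal centre B cells in their proliferating state. An siRNA guides the RNA silencing complex to its target by base pairing, and pairing of its short seed with other transcripts can lower those too, which is why transcripts that fall along with a target draw attention. The 5 genes belong to unrelated processes. MFSD1 is a transporter of the lysosomal membrane, KIF5C a heavy chain of the microtubule motor kinesin-1 best known from neurons, and UBQLN2 an ubiquilin that delivers ubiquitinated proteins to the proteasome. PLEKHB2, also called evectin-2, is a membrane protein of recycling endosomes with a pleckstrin homology domain, and SUDS3 is a subunit of the SIN3 histone deacetylase complex.

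The sequence upstream of each start is shown because the 5 genes were picked for moving together. RefSeq windows (GRCh38.p14) were at hand for 4 of the 5 genes, PLEKHB2 being the exception. The 250 bases before the start, all on the plus strand and for KIF5C at the first base of the gene, which has 2 windows, are chr3:158801804-158802053 for MFSD1, chr2:148874977-148875226 for KIF5C, chrX:56563377-56563626 for UBQLN2 and chr12:118376305-118376554 for SUDS3, and capitals mark the motifs searched.
MFSD1: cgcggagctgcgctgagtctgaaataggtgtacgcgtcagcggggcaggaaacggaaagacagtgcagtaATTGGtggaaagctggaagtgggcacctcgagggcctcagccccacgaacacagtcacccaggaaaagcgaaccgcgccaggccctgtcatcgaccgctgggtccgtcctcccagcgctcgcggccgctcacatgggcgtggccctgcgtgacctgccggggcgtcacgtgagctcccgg
KIF5C: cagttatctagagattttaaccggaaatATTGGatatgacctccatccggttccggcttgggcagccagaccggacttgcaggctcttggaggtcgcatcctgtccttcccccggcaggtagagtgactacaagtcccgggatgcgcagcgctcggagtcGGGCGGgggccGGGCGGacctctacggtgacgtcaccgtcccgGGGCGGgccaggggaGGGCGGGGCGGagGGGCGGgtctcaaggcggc
UBQLN2: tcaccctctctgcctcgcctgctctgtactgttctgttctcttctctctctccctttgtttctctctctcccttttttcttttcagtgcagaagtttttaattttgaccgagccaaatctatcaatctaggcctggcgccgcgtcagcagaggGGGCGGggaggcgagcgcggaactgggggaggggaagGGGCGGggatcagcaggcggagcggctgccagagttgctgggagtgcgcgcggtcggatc
SUDS3: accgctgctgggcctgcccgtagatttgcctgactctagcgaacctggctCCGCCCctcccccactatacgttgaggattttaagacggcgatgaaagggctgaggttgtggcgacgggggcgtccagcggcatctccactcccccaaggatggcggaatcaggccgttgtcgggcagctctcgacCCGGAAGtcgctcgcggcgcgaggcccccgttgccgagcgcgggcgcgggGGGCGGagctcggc
The motifs, each searched on both strands, were the GC box GGGCGG, the box bound by NF-Y with the letters CCAAT, the TATA box with the letters TATAAA, the core bound by ETS factors with the letters CCGGAAG and the spaced palindrome of BCL6 and STAT factors with the letters TTCNNNGAA. Adjoining GC boxes overlap in KIF5C. GC boxes numbered 6 in KIF5C, 2 in UBQLN2, 2 in SUDS3 and 0 in MFSD1, and 42.6% of all 35116 windows of this length hold one. CCAAT stood once in MFSD1 and once in KIF5C (32% of windows), and the ETS core once in SUDS3 (8.52% of windows). TATAAA (10.7% of windows) and TTCNNNGAA (6.57% of windows) were in none of the 4. The share of G and C in the window was 66% in MFSD1, 66% in KIF5C, 58.8% in UBQLN2 and 68.4% in SUDS3, against a median of 58% over all windows.

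BCL6, which is known to repress its own gene, is shown beside these genes. Its window at the first base of the gene, from 250 bases before to 50 after the start, on the minus strand of the same build, held TTCNNNGAA 4 times, at chr3:187745482-187745502, chr3:187745459-187745479, chr3:187745444-187745464 and chr3:187745419-187745438. These stretches are shown with the matched letters in capitals, numbered from the first base of the transcript.
BCL6 at -28: ctcaaaTTCCGAGAAttgagc
BCL6 at -5: tgttgaTTCTTAGAActgggg
BCL6 at 11: ctggggTTCTTAGAAgtggtg
BCL6 at 37: agaagtTTCTAGGAAaggcc
The first match alone lies wholly within the 250 upstream bases used for the shares above. Bases past the start were not searched in the other genes, so the remaining BCL6 matches have no like window there. A match describes letters in a window and is no evidence of binding, and the absence of a match says only that these letters are not in that window.

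The arrays were evenly scaled. Transformed back from log2, each array had a mean of 500.0 after trimming 2% of probe sets at either end, so the authors had scaled all arrays alike. Median signals ran from 71.3 to 85, and 21.2% to 23.1% of probe sets read below 16. B cell markers were bright in both lines: MS4A1, CD79A, CD79B, PAX5 and CD22 summed to 29320 to 33360 on Pfeiffer BCL6 siRNA arrays against 44020 to 44520 on Pfeiffer controls, and to 59310 to 60430 on OCI-Ly7 BCL6 siRNA arrays against 49490 to 51680 on OCI-Ly7 controls. Of these, MS4A1, CD79B, PAX5 and CD22 were called lower after siRNA in Pfeiffer (limma adjusted p = 5.13e-08 to 0.00733), and CD79A and CD79B were called higher in OCI-Ly7 (adjusted p = 0.0176 and 0.000252). The 3 T cell markers summed to at most 251.5 and the 3 myeloid markers to at most 178.4 on any array, and no marker was at 0. Of 4 epithelial markers only EPCAM was bright in Pfeiffer, with a mean signal of 14970 after siRNA and 17050 in controls. In either OCI-Ly7 group EPCAM was at 18.2. The other epithelial markers were far lower in Pfeiffer after siRNA and in controls: KRT18 at 374.5 and 389.4, KRT8 at 217.6 and 208.7, and CDH1 at 29.2 and 12.3. The part of these marker differences in the values below was not tested.

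MFSD1, the lysosomal transporter, had the largest difference of the 5 genes between siRNA and control in Pfeiffer. Its only probe set, 218109_s_at, read 10.36, 10.36 and 10.49 on Pfeiffer BCL6 siRNA arrays and 11.72, 11.82 and 11.68 on Pfeiffer controls, in units of log2(signal + 16) as throughout. In OCI-Ly7 it read 10.06, 10.00 and 9.90 after siRNA and 10.60, 10.80 and 10.68 in controls. In both lines every siRNA array lay below every control array, by 1.19 in Pfeiffer and 0.53 in OCI-Ly7. The siRNA mean was 10.41 ± 0.08 and the control mean 11.74 ± 0.07 in Pfeiffer, and the siRNA mean was 9.99 ± 0.08 and the control mean 10.69 ± 0.10 in OCI-Ly7 (SD, n = 3 each). The change of -1.34 ± 0.07 (limma SE) left 39.6% of the control level in Pfeiffer, and that of -0.70 ± 0.07 left 61.5% in OCI-Ly7. From low to high the group means ran OCI-Ly7 siRNA, Pfeiffer siRNA, OCI-Ly7 control and Pfeiffer control, and no neighbours in that order overlapped. Having 1 probe set, MFSD1 offers no second reading on these arrays. Its name ends in _s_at, which marks a set that can bind several transcripts.

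KIF5C, the kinesin-1 heavy chain, had 3 probe sets, and siRNA and control arrays were apart at 1 of them. The brightest, 203130_s_at, read 7.90, 7.71 and 7.73 on Pfeiffer BCL6 siRNA arrays and 8.68, 8.83 and 8.86 on Pfeiffer controls. In OCI-Ly7 it read 8.87, 8.88 and 8.79 after siRNA and 9.40, 9.56 and 9.55 in controls. There was no overlap in either line, and the changes of -1.01 ± 0.12 in Pfeiffer and -0.66 ± 0.12 in OCI-Ly7 (limma SE) left 49.8% and 63.4% of the control level. In the order of means Pfeiffer siRNA (7.78) came lowest and OCI-Ly7 control (9.50) highest, while the neighbours between them, OCI-Ly7 siRNA (8.85) and Pfeiffer control (8.79), overlapped.

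The other KIF5C probe sets were dim. At 203129_s_at the Pfeiffer siRNA arrays read 5.20, 6.42 and 5.31 and the controls 5.85, 6.20 and 6.77, and the OCI-Ly7 siRNA arrays 7.16, 6.76 and 7.50 against controls of 7.54, 7.78 and 7.44. Its mean changes had the same sign (-0.63 ± 0.38 and -0.45 ± 0.38) with overlapping arrays in both lines. At 1557089_at, the only KIF5C set whose name does not end in _s_at or _x_at, the changes were -0.23 ± 0.45 in Pfeiffer and -0.35 ± 0.45 in OCI-Ly7, within their SE, and the arrays overlapped. The mean over the 3 sets was -0.62 in Pfeiffer and -0.48 in OCI-Ly7. Neuronal markers were dim: SNAP25, SYT1, RBFOX3 and STMN2 summed to 227.2 to 261.1 on Pfeiffer siRNA arrays and 100.2 to 221.3 on Pfeiffer controls, and to 101.7 to 219.4 against 159.3 to 207.4 in OCI-Ly7, with none at 0.

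UBQLN2, the ubiquilin, had like control levels in the lines. Its brighter probe set 215884_s_at read 10.33, 10.21 and 10.25 on Pfeiffer BCL6 siRNA arrays and 11.17, 11.25 and 11.11 on Pfeiffer controls. In OCI-Ly7 it read 10.41, 10.42 and 10.53 after siRNA and 11.12, 11.25 and 11.05 in controls. Neither line showed overlap between siRNA and control. The changes were -0.91 ± 0.07 in Pfeiffer, leaving 53.1%, and -0.68 ± 0.07 in OCI-Ly7, leaving 62.3% (limma SE). Both control groups overlapped at the top of the order (11.18 and 11.14), and Pfeiffer siRNA (10.26) lay below OCI-Ly7 siRNA (10.46) without overlap. The dimmer probe set 239888_at differed by -0.76 ± 0.28 in OCI-Ly7, where siRNA arrays (6.21, 6.87 and 6.61) lay below controls (7.56, 7.38 and 7.03). In Pfeiffer its siRNA arrays (6.91, 6.64 and 7.03) overlapped with controls (6.90, 7.15 and 7.46), for a change of -0.31 ± 0.28. So the larger change was in Pfeiffer at the bright set and in OCI-Ly7 at the dim one, and the mean of both sets gave -0.61 in Pfeiffer and -0.72 in OCI-Ly7.

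PLEKHB2, the recycling endosome protein, was lower by similar amounts in both lines at its brightest set. At 201410_at the Pfeiffer BCL6 siRNA arrays read 10.36, 10.27 and 10.37 and the Pfeiffer controls 11.08 on all 3. The OCI-Ly7 siRNA arrays read 10.04, 10.21 and 10.27 and the controls 10.91, 10.73 and 10.89. The changes of -0.75 ± 0.08 and -0.67 ± 0.08 left 59.5% in Pfeiffer and 62.8% in OCI-Ly7 (limma SE), with no overlap. In the order of means the siRNA groups overlapped at the low end, at 10.33 in Pfeiffer and 10.17 in OCI-Ly7, and OCI-Ly7 control (10.84) and Pfeiffer control (11.08) followed without overlap.

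A second PLEKHB2 set, 201411_s_at, changed by -0.50 ± 0.14 in Pfeiffer and -0.54 ± 0.14 in OCI-Ly7. Its Pfeiffer siRNA arrays (9.44, 9.18 and 9.40) lay clear of controls (9.82, 9.91 and 9.79), whereas in OCI-Ly7 (8.91, 8.80 and 9.10 against 9.57, 9.10 and 9.77) the nearest arrays of the groups both read 9.10. The third, 224121_x_at, was dim and disagreed between lines, with -1.09 ± 0.55 in Pfeiffer and 0.33 ± 0.55 in OCI-Ly7. Its OCI-Ly7 arrays read 6.44, 5.38 and 5.35 after siRNA against 4.61, 6.10 and 5.48 in controls, with overlapping groups. It was the 1 probe set of the 11 with a mean above control. Averaging all 3 sets gave -0.78 in Pfeiffer and -0.30 in OCI-Ly7.

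SUDS3, the SIN3 complex subunit, had 2 bright probe sets that gave like values. At 224974_at the Pfeiffer BCL6 siRNA arrays read 9.97, 9.83 and 9.55 and the Pfeiffer controls 10.43, 10.62 and 10.57. The OCI-Ly7 siRNA arrays read 9.88, 10.12 and 10.04 and the controls 10.67, 10.63 and 10.67. The changes were -0.76 ± 0.10 in Pfeiffer, leaving 59.1%, and -0.65 ± 0.10 in OCI-Ly7, leaving 63.9% (limma SE). At 233841_s_at the changes were -0.68 ± 0.10 and -0.58 ± 0.10. In each line and at each set the siRNA arrays lay wholly below the controls, by 0.41 to 0.53. From low to high the means at 224974_at ran Pfeiffer siRNA, OCI-Ly7 siRNA, Pfeiffer control and OCI-Ly7 control, and among neighbours the siRNA groups overlapped and the others did not. Pfeiffer siRNA replicate 3, the lowest SUDS3 array at 224974_at, was also the lowest for BCL6 (12.75 against 13.11 and 13.04 on the other siRNA arrays of the line), but the second SUDS3 set did not set it apart (9.27 against 9.08 and 9.29).

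**Figure D1:**
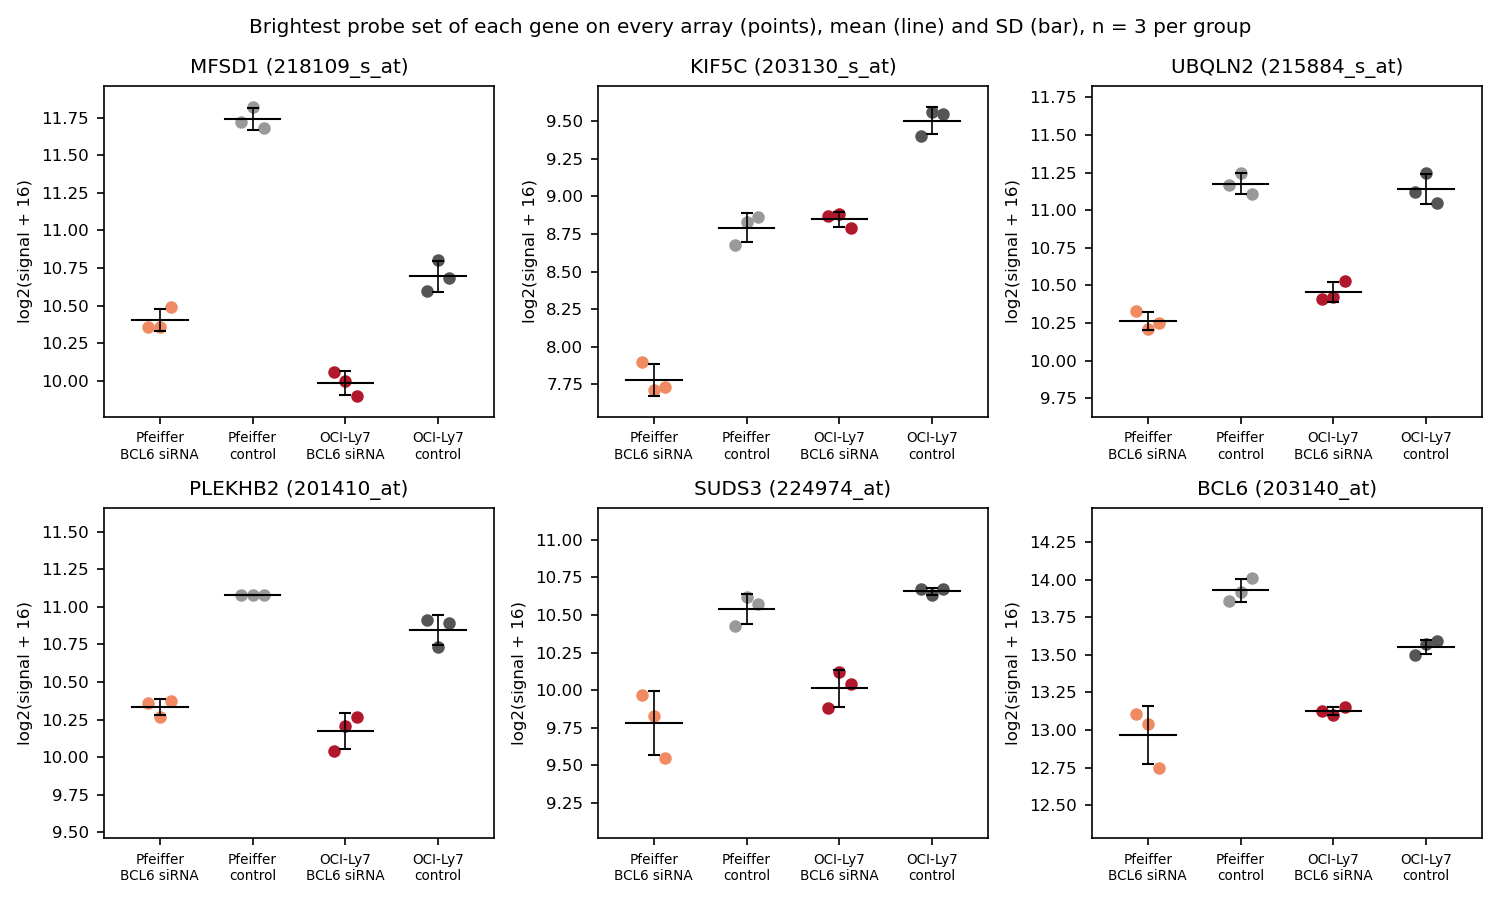
Signal of the brightest probe set of each of the 5 genes and of BCL6 on every array, as log2(signal + 16) on axes of equal span, with 1 point per array and the mean and SD of each group of 3. For each gene the siRNA points of a line lie below all its control points, and MFSD1 shows the widest gap, 1.19 in Pfeiffer.

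Counted over the 5 genes at their brightest probe sets, siRNA arrays lay below control arrays without overlap in both lines for all 5. The genes were picked for this, so nothing is read from that count, and the same held for 2.17% of the 9888 genes tested (16.9% in Pfeiffer and 9.42% in OCI-Ly7). Over their 11 probe sets, 7 showed no overlap in Pfeiffer, 8 in OCI-Ly7 and 7 in both, against 9.72%, 8% and 1.1% of all single-symbol probe sets. The 7 were the brightest set of each gene, the second set of SUDS3 and 201411_s_at of PLEKHB2, whose gap in OCI-Ly7 rounds to 0. The 3 sets that overlapped in both lines were both dim KIF5C sets and 224121_x_at of PLEKHB2. Means lay below control in both lines at 10 of the 11 sets, for which no share over all probe sets was counted. The sets belong to genes picked for falling, so nothing is read from these counts either.

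**Figure D2:**
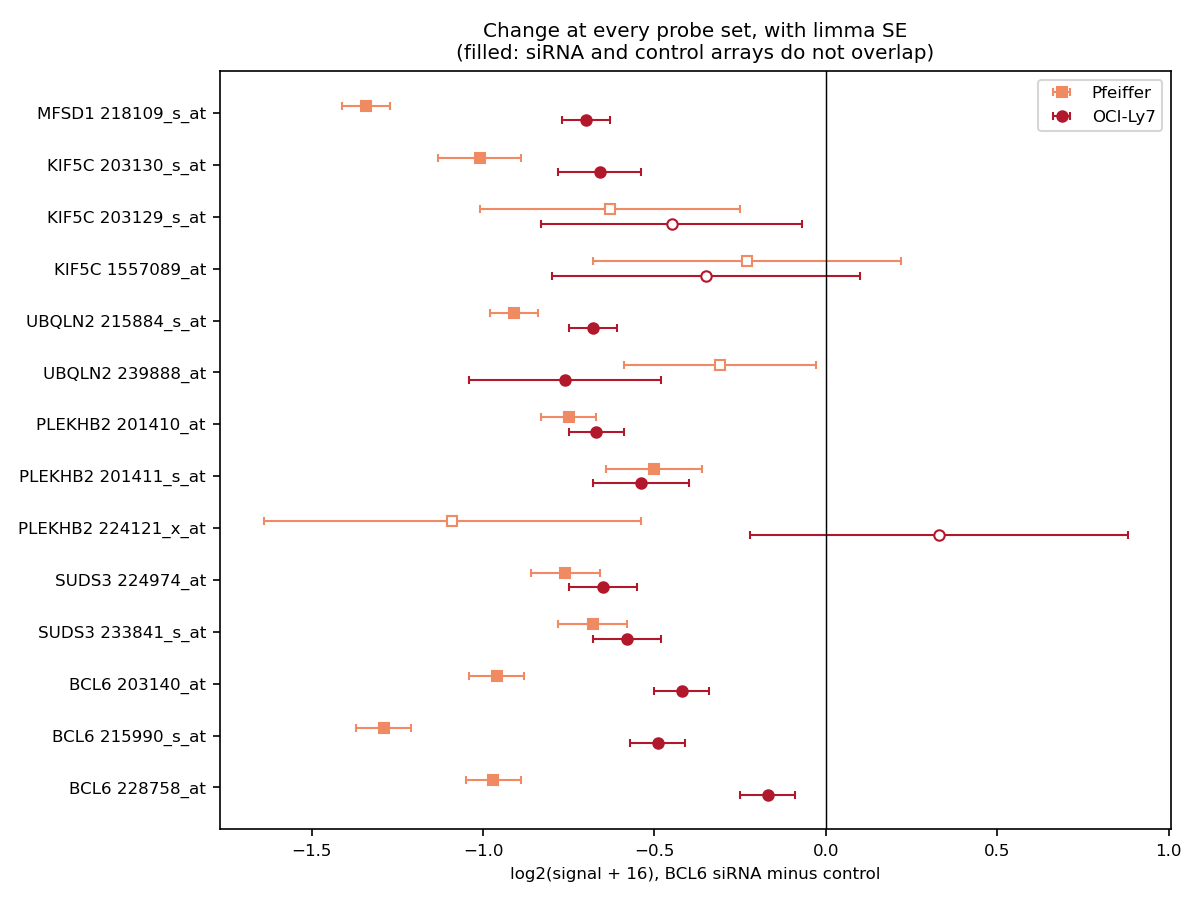
BCL6 siRNA minus control at every probe set of the 5 genes and of BCL6, in log2(signal + 16), with limma's SE as bars. Squares are Pfeiffer and circles OCI-Ly7, and filled points are those where siRNA and control arrays did not overlap. The brightest set of each gene lies left of 0 with a short bar in both lines, while the dim sets of KIF5C and PLEKHB2 have long bars and open points, and 224121_x_at of PLEKHB2 lies right of 0 in OCI-Ly7.

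The rule that picked the genes has no threshold. Ranked by the smaller of their falls in the lines among the 9888 genes tested, MFSD1 came at 2, UBQLN2 at 4, PLEKHB2 at 5, KIF5C at 6 and SUDS3 at 8, and BCL6 at 33. The genes among them that are not of the 5 were PNMA8A at 1 (-0.78 in Pfeiffer and -0.83 in OCI-Ly7), CTTN at 3 (-0.70 and -0.72) and MAP3K7CL at 7 (-1.69 and -0.66), and the next after SUDS3 was LINC01857 (-0.91 and -0.62). The spread between arrays of a group was 0.077 for UBQLN2, 0.083 for MFSD1 and PLEKHB2, 0.089 for KIF5C and 0.131 for SUDS3 (pooled SD), against a median of 0.13 over all genes tested.

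BCL6 itself, the siRNA's target, was lower in both lines, and more so in Pfeiffer. Its brightest probe set, 203140_at, read 13.11, 13.04 and 12.75 on Pfeiffer siRNA arrays and 13.86, 13.92 and 14.01 on Pfeiffer controls. In OCI-Ly7 it read 13.13, 13.10 and 13.15 after siRNA and 13.50, 13.57 and 13.59 in controls. The groups did not overlap in either line. BCL6 fell by 0.96 ± 0.08 in Pfeiffer (limma adjusted p = 5.31e-07) and by 0.42 ± 0.08 in OCI-Ly7 (adjusted p = 0.00731), leaving 51.3% and 74.6% of the control level. Of its other probe sets, 215990_s_at changed by -1.29 ± 0.08 in Pfeiffer and -0.49 ± 0.08 in OCI-Ly7, and 228758_at by -0.97 ± 0.08 and -0.17 ± 0.08, also without overlap. The change in Pfeiffer minus that in OCI-Ly7 was -0.54 ± 0.11 (adjusted p = 0.00496).

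Set beside BCL6 at the brightest probe sets, the 5 genes differed in how their changes compared between lines. The change in Pfeiffer minus that in OCI-Ly7 was -0.64 ± 0.11 for MFSD1, -0.35 ± 0.17 for KIF5C, -0.23 ± 0.10 for UBQLN2, -0.11 ± 0.14 for SUDS3 and -0.08 ± 0.11 for PLEKHB2 (limma SE). As ratios of log2 changes, Pfeiffer over OCI-Ly7, this is 1.91 for MFSD1, 1.53 for KIF5C, 1.34 for UBQLN2, 1.18 for SUDS3 and 1.12 for PLEKHB2, against 2.28 for BCL6. At these sets all 5 lay between -0.70 and -0.65 in OCI-Ly7, beyond BCL6 at -0.42. In Pfeiffer they ran from -1.34 for MFSD1 to -0.75 for PLEKHB2, on either side of BCL6 at -0.96. The comparison between lines moved with the mean of each gene's probe sets. PLEKHB2 was then at -0.78 in Pfeiffer and -0.30 in OCI-Ly7. UBQLN2 was at -0.61 in Pfeiffer and -0.72 in OCI-Ly7, so its larger change was in OCI-Ly7. KIF5C was at -0.62 and -0.48, SUDS3 at -0.72 and -0.61 and BCL6 at -1.08 and -0.36, while MFSD1 has no other set. By these means, PLEKHB2 (-0.30) fell short of BCL6 (-0.36) in OCI-Ly7. KIF5C (-0.48), SUDS3 (-0.61), MFSD1 (-0.70) and UBQLN2 (-0.72) lay beyond it there. Without _s_at and _x_at sets KIF5C (-0.35) fell short of BCL6 (-0.42) in OCI-Ly7. These are descriptions of the contrasts that picked the genes and were given no p.

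The difference between the lines, averaged over siRNA and control arrays, did not enter the choice of the genes and was tested. MFSD1 averaged 11.07 in Pfeiffer and 10.34 in OCI-Ly7, a difference of 0.73 ± 0.05 (limma adjusted p = 2.51e-09). KIF5C averaged 8.29 in Pfeiffer and 9.18 in OCI-Ly7, a difference of -0.89 ± 0.08 (adjusted p = 5.52e-08). PLEKHB2, at 10.71 and 10.51, differed by 0.20 ± 0.05 (adjusted p = 0.0027), and SUDS3, at 10.16 and 10.34, by -0.17 ± 0.07 (adjusted p = 0.0333). UBQLN2, at 10.72 and 10.80, differed by -0.08 ± 0.05 and did not pass (adjusted p = 0.173). That 4 of the 5 passed is near the 85.1% called among all genes tested (45.2% higher and 39.9% lower in Pfeiffer), so it is no result about these genes.

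Other probe sets were read in a fit over all single-symbol probe sets, of which 46.8% were called. KIF5C was lower in Pfeiffer at 203129_s_at too (-1.41 ± 0.27, limma adjusted p = 0.000312), but 1557089_at did not pass (-0.40 ± 0.32, adjusted p = 0.35). PLEKHB2 was higher in Pfeiffer at 201411_s_at (0.38 ± 0.10, adjusted p = 0.00521) and at 224121_x_at (1.02 ± 0.39, adjusted p = 0.0426). SUDS3 did not pass at its second set (-0.09 ± 0.07, adjusted p = 0.334), nor UBQLN2 at its second (0.07 ± 0.20, adjusted p = 0.816). The call of SUDS3 rested on single arrays: it was lost without Pfeiffer siRNA replicate 3 (-0.12, adjusted p = 0.0825), Pfeiffer control replicate 1 (-0.15, 0.0861), OCI-Ly7 siRNA replicate 2 (-0.15, 0.0819) or 3 (-0.17, 0.0605) or OCI-Ly7 control replicate 1 (-0.17, 0.0593) or 3 (-0.17, 0.056), and after quantile normalization (-0.15, 0.074).

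Within the arms, MFSD1 was higher in Pfeiffer by 0.41 on siRNA arrays and by 1.05 on controls. KIF5C differed by -1.06 on siRNA arrays and -0.72 on controls, with the same sign. PLEKHB2 differed by 0.16 and 0.24, and SUDS3 by -0.23 and -0.12. UBQLN2 changed sign, with -0.19 on siRNA arrays and 0.04 on controls, and its control arrays overlapped between the lines.

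**Figure D3:**
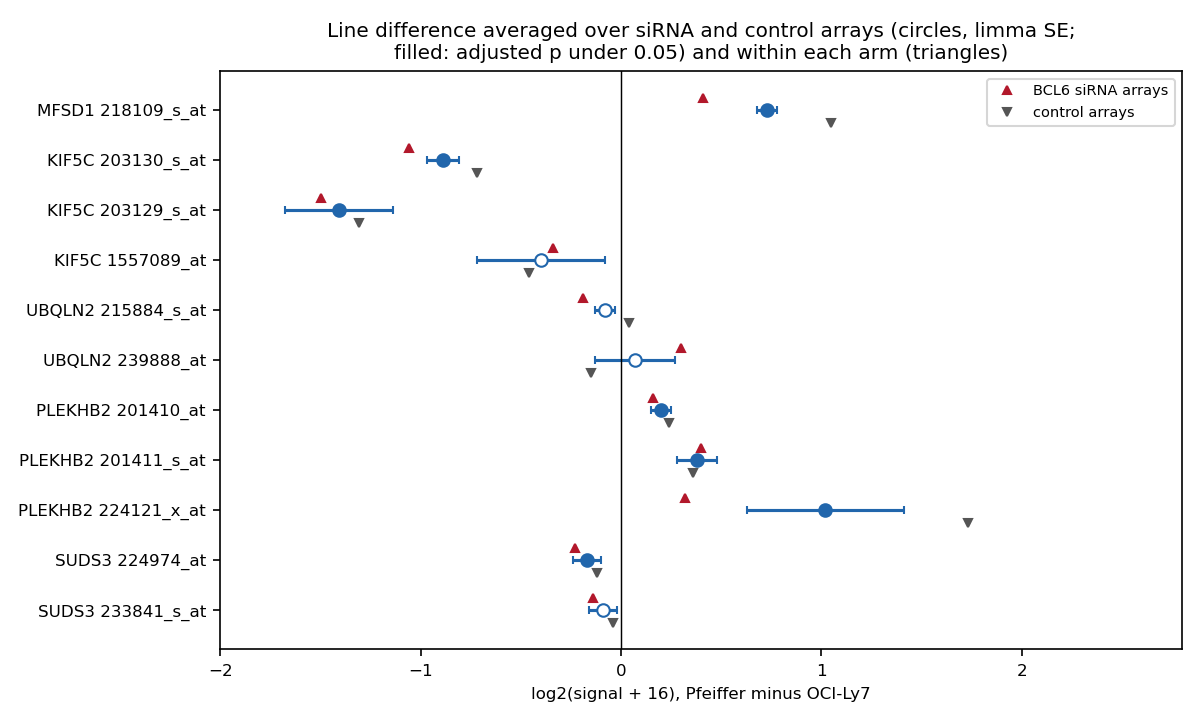
Pfeiffer minus OCI-Ly7 at every probe set of the 5 genes, in log2(signal + 16). Circles are the mean over siRNA and control arrays with limma's SE, filled where the adjusted p is under 0.05, and triangles the difference on siRNA (pointing up) and on control arrays (pointing down). MFSD1 lies at 0.73 and the brightest KIF5C set at -0.89, with both triangles of each on the same side of 0.

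The likeness of the 5 genes across the 12 arrays was that of the groups. With each line's mean taken off, their pairwise Pearson correlations ran from 0.909 (MFSD1 and SUDS3) to 0.979 (MFSD1 and KIF5C), a description of the siRNA difference that picked them. With each group's mean taken off, they ran from -0.59 (MFSD1 and PLEKHB2) to 0.461 (KIF5C and SUDS3), in 12 arrays that share their scaling. Against BCL6 the same within-group value was 0.755 for SUDS3, 0.566 for KIF5C, 0.068 for UBQLN2, -0.183 for PLEKHB2 and -0.401 for MFSD1. The SUDS3 value takes in Pfeiffer siRNA replicate 3, the lowest of its group for BCL6 (12.75) and at 224974_at (9.55). At the second SUDS3 set that array read 9.27, against 9.08 and 9.29.

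The genes most like each of the 5, by line-centred Pearson correlation over the 12 arrays, were 6 in all. Line-centred values hold the siRNA difference that picked the 5 genes, so these correlations too are a description of it. LAPTM4A, a lysosomal membrane protein, was among the 2 most like UBQLN2 (0.986), KIF5C (0.969) and SUDS3 (0.964), with changes of -0.83 in Pfeiffer and -0.55 in OCI-Ly7. VGLL4, a cofactor of TEAD transcription factors, was among the 2 most like UBQLN2 (0.981), MFSD1 (0.976) and KIF5C (0.969), with smaller changes of -0.52 and -0.28. CASP9, the initiator caspase of the mitochondrial death pathway, tracked MFSD1 most closely (0.98) with changes of -0.30 and -0.13. Its change in OCI-Ly7 did not pass the test (limma adjusted p = 0.484). For PLEKHB2 they were the helicase DHX33 (0.969, with changes of -0.59 and -0.61) and the spindle checkpoint gene MAD1L1 (0.968, with -0.40 and -0.37). For SUDS3 the second was the dynein light chain DYNLT3 (0.961, with -0.28 and -0.24), whose change in OCI-Ly7 did not pass (limma adjusted p = 0.0881). After averaging every probe set of each gene, CASP9 and MFSD1 correlated at 0.15, while the other pairs named here ran from 0.74 (VGLL4 with KIF5C and MAD1L1 with PLEKHB2) to 0.97 (VGLL4 with MFSD1 and LAPTM4A with SUDS3). Without _s_at and _x_at sets LAPTM4A correlated at 0.23 with KIF5C and at 0.65 with UBQLN2.

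Most of the related genes listed with the 5 genes did not pass the test in either line. They are paralogues, complex partners and genes of the same pathway or organelle. Of 43 listed genes 38 were measured and 37 tested, KLC3 being too dim, and the rest were not analysed here. In Pfeiffer 4 rose and 6 fell (7.9% and 8.31% of all genes tested), and 27 did not pass the test, so that 27% were called against 16.2% of all genes tested. The median change was 0, as over all genes tested. In OCI-Ly7 limma called 0 of 37, against 2.68% of all genes (1.69% higher and 0.991% lower). At an unadjusted p under 0.05, 3 were higher there (KLC1, SLC38A9 and TFRC) and 0 lower, against 15.5% of all genes either way. The median change there was 0.01, against 0.015 over all genes tested. The lists were chosen with earlier results of these data known, so nothing is read from 27% against 16.2% in Pfeiffer. The same holds for the counts in single lists given below. With the mean of each gene's probe sets, 4 of 35 listed genes were called in Pfeiffer, against 1027 of all 9888 tested.

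Of the paralogues, UBQLN1 was called lower in Pfeiffer and the others were not called. KIF5B, the kinesin-1 heavy chain of most tissues, differed by 0.00 ± 0.08 in Pfeiffer and 0.13 ± 0.08 in OCI-Ly7, and KIF5A by -0.07 ± 0.37 and 0.64 ± 0.37, none passing the test. None of the 5 kinesin-1 genes tested was called in either line, against 16.2% of all genes tested in Pfeiffer and 2.68% in OCI-Ly7. UBQLN1 read 12.52, 12.58 and 12.46 on Pfeiffer siRNA arrays and 12.76, 12.78 and 12.77 on Pfeiffer controls, without overlap. It fell by 0.25 ± 0.05 in Pfeiffer (limma adjusted p = 0.00547), with -0.25 to -0.22 at its 3 probe sets, and differed by -0.06 ± 0.05 in OCI-Ly7 (adjusted p = 0.69). UBQLN4 differed by -0.07 ± 0.17 in Pfeiffer and 0.01 ± 0.17 in OCI-Ly7, although its dimmer set 222252_x_at gave 1.08 ± 0.24 and -0.54 ± 0.24. PLEKHB1 differed by 0.01 ± 0.16 and 0.13 ± 0.16.

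Among the 15 tested genes of the SIN3 complex, where SUDS3 belongs, 1 rose and 2 fell in Pfeiffer. Of all genes tested, 7.9% were higher there and 8.31% lower. HDAC1, a catalytic subunit, read 13.68, 13.66 and 13.70 on Pfeiffer siRNA arrays and 14.20, 14.28 and 14.28 on Pfeiffer controls, without overlap. It fell by 0.57 ± 0.05 (limma adjusted p = 2.22e-06) in Pfeiffer, and in OCI-Ly7 the siRNA arrays (13.56, 13.46 and 13.64) overlapped with controls (13.45, 13.50 and 13.48), for 0.08 ± 0.05 (adjusted p = 0.5). The difference between the lines' changes was -0.66 (adjusted p = 4.08e-05). ARID4B fell by 0.35 ± 0.10 (adjusted p = 0.0311), but averaged over its probe sets it was at 0.02 (adjusted p = 0.976). ING2, which reads methylated histone H3, rose by 0.36 ± 0.08 (adjusted p = 0.00733), a call that averaging its probe sets ended (0.52, adjusted p = 0.124).

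Of the 7 genes listed with MFSD1, its partner GLMP and lysosomal membrane transporters, 2 fell in Pfeiffer and 0 rose. Among all genes tested 8.31% were lower there and 7.9% higher. SLC15A3, a peptide and histidine transporter of endolysosomes, read 10.79, 10.82 and 11.04 on Pfeiffer siRNA arrays and 11.77, 11.52 and 11.90 on controls, and fell by 0.85 ± 0.14 (limma adjusted p = 0.000522). Its relative SLC15A4 read 9.59, 9.76 and 9.56 on Pfeiffer siRNA arrays and 10.53, 10.21 and 10.18 on controls, and fell by 0.67 ± 0.09 (adjusted p = 8.41e-05), a call that averaging its probe sets ended (-0.28, adjusted p = 0.189). In OCI-Ly7 neither passed, with 0.11 ± 0.14 for SLC15A3 and -0.10 ± 0.09 for SLC15A4. GLMP, the partner of MFSD1 known from mouse, differed by -0.22 ± 0.11 in Pfeiffer (adjusted p = 0.175) and 0.07 ± 0.11 in OCI-Ly7 (adjusted p = 0.811).

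Of the 7 recycling endosome genes listed with PLEKHB2, 3 rose and 1 fell in Pfeiffer, against 7.9% higher and 8.31% lower of all genes tested. EHD1, a membrane remodelling ATPase, rose by 0.45 ± 0.12 (limma adjusted p = 0.0156), the phospholipid flippase ATP8A1 by 0.36 ± 0.11 (adjusted p = 0.0404) and the transferrin receptor TFRC by 0.30 ± 0.09 (adjusted p = 0.0314), while the small GTPase RAB11A fell by 0.18 ± 0.05 (adjusted p = 0.0242). Averaged over their probe sets EHD1 was at 0.19 (adjusted p = 0.149), ATP8A1 at 0.20 (0.525) and TFRC at 0.18 (0.319), and RAB11A was at -0.04 (0.916) without _s_at and _x_at sets. Each of these 4 calls was also lost when some single Pfeiffer array was left out. EHD1 was at 0.37 (adjusted p = 0.0737) and ATP8A1 at 0.27 (0.168) without Pfeiffer control replicate 3, TFRC at 0.21 (0.138) without Pfeiffer siRNA replicate 1, and RAB11A at -0.16 (0.0954) without Pfeiffer control replicate 3. Without that control array 5 of the 37 listed genes were called in place of 10, and without Pfeiffer siRNA replicate 2 there were 6. HDAC1, UBQLN1 and SLC15A3 kept their calls in all 19 settings run.

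**Figure D4:**
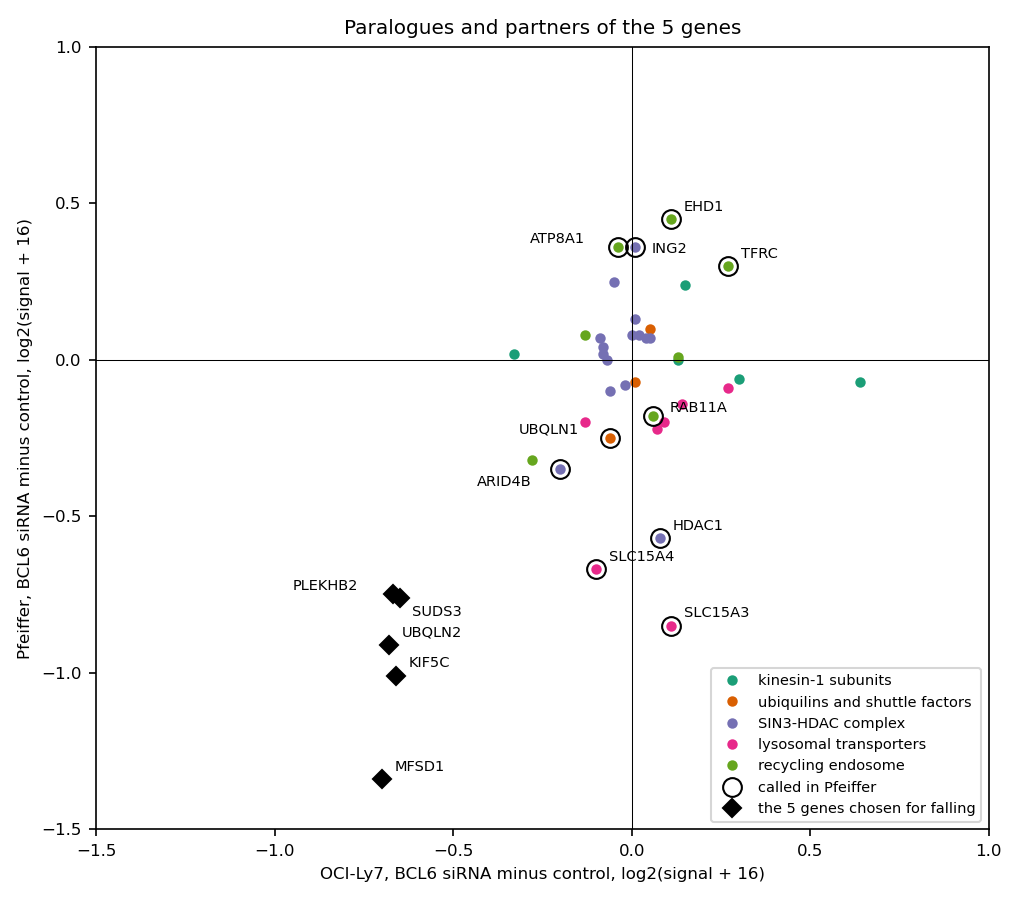
BCL6 siRNA minus control in Pfeiffer (vertical axis) against OCI-Ly7 (horizontal axis), in log2(signal + 16). Circles are the 37 tested related genes, coloured by list and ringed where called in Pfeiffer, and diamonds are the 5 genes. The diamonds lie at -0.65 or below on the horizontal axis and at -0.75 or below on the vertical one, while the circles scatter around 0, with SLC15A3 at -0.85, SLC15A4 at -0.67 and HDAC1 at -0.57 on the vertical axis.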

How the data were processed

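Total RNA was measured on 12 arrays, 3 per group, 48 h after transfection. The deposited log2 values, of 54675 probe sets, were made by the authors with MAS5 and affy, per the submitters' processing notes, which give no version. MAS5 subtracts mismatch signals, so dim probe sets are noisy. The arrays had been scaled to one level by the authors and were not normalized again.

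Probe sets with 1 gene symbol (41091) were used, while 1801 with several, 11721 with none and 62 controls were not. The scale used is log2(signal + 16), on which changes of dim genes are understated. Each gene took its brightest probe set, and the upper 0.5 of genes by the higher line mean, 9888, was tested. Limma (lmFit and eBayes with a trend) was fitted on 4 group means, with 8 residual degrees of freedom, two-sided p-values and Benjamini-Hochberg adjustment over all genes tested, at a threshold of 0.05. The fit was tested on simulated data. The number of arrays limits the precision.

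The 5 genes and the lists were chosen with earlier results of these data known. Named besides the 5 genes and BCL6 were related genes that passed or are paralogues, and the 2 genes most like each of the 5. PNMA8A, CTTN, MAP3K7CL, LINC01857 and other related genes were named after their values were seen. Alternatives were quantile normalization, pseudocounts of 1 and 64, no filter, the mean of a gene's probe sets, no _s_at or _x_at sets, a replicate block, and each array left out. Fits ran in R 4.3.3 with limma 3.58.1 and the data.table package (1.17.8), and figures in Python 3.11.15 with matplotlib 3.10.9, pandas 2.3.3 and numpy 2.4.6.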

Additional observations from a re-analysis of the deposited data

Results flagged for a closer look

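The change after BCL6 siRNA differed between the lines by limma's test of the difference itself for BCL6 and 3 of the related genes. As the change in Pfeiffer minus that in OCI-Ly7, BCL6 was at -0.54 (adjusted p = 0.00496), HDAC1 at -0.66 (adjusted p = 4.08e-05), SLC15A3 at -0.96 (adjusted p = 0.00555) and SLC15A4 at -0.57 (adjusted p = 0.0093). Over all genes tested, 8.8% passed this test. Averaged over its probe sets SLC15A4 was at -0.36 (adjusted p = 0.295), and the other 3 passed in all 19 settings run. The 5 genes were not tested for this difference.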

How the results depend on the processing

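The 5 genes were picked for falling in these same arrays, so nothing is read from the sign of their changes under the alternatives. Their changes after siRNA were negative in 188 of 188 such values, and 5 of these moved by over 1.5 times. They were KIF5C without _s_at and _x_at sets (-0.23 in Pfeiffer and -0.35 in OCI-Ly7), KIF5C with the mean of its sets in Pfeiffer (-0.62), UBQLN2 without such sets in Pfeiffer (-0.31) and PLEKHB2 with the mean of its sets in OCI-Ly7 (-0.30). MFSD1 has an _s_at set only, so it has no value without them. The genes called in OCI-Ly7, 265, became 164 with no filter, 133 with the mean of probe sets, 169 without _s_at and _x_at sets and 139 with the replicate block. With each array left out in turn they ran from 101 (without OCI-Ly7 siRNA replicate 1) to 330, with 135, 153, 159 and 174 without OCI-Ly7 siRNA replicate 3, control replicate 3, control replicate 1 and siRNA replicate 2. In Pfeiffer 1603 became 1027 with the mean of probe sets. The line difference, 8414 genes, ran from 7033 to 9945. Related genes called in Pfeiffer, 10 of 37, became 6 of 38 with no filter and 4 of 35 with the mean of probe sets. They became 6 of 27 without _s_at and _x_at sets, and ran from 5 to 10 with each array left out. In OCI-Ly7 the related genes called went to 1 with quantile normalization and ran from 0 to 1 with each array left out. ARID4B was reversed when its probe sets were averaged, at 0.02. The cause of these moves was not tested.

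Deviations of same-numbered arrays correlated at -0.0802 to 0.083, and those of differently numbered arrays at -0.109 to 0.0911. The labels do not say whether same-numbered arrays share a culture or day, and these values cannot decide it. With the replicate block 1390 genes were called in Pfeiffer, 8372 between the lines and 9 related genes in Pfeiffer, TFRC missing (adjusted p = 0.053).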
